A study of Mus musculus with 10 samples.

Results

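Immunoglobulin gene segments were followed in sorted mouse regulatory T cells (Treg, CD4 T cells marked by Foxp3 that hold immune responses in check). A row was a member if it was named as a V, D, J or constant gene of the heavy (Igh), kappa (Igk) or lambda (Igl) chain and stood above 0 FPKM in at least 1 of the 4 libraries used. FPKM counts sequenced fragments relative to transcript length and to the size of the library. Of 32767 genes in the tables, 107 carried such a name and 30 were members. They comprised 6 heavy V segments, 5 heavy constant genes, 14 kappa V segments, the kappa constant gene Igkc, 3 lambda V segments and Iglc2, 1 of the lambda constant genes.

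The study compared WT Treg from Foxp3cre/wt Tcf7wt/wt Lef1wt/wt mice with dKO Treg from Foxp3cre/wt Tcf7fl/fl Lef1fl/fl mice, with 2 libraries per group. All were C57BL/6, and cells came from spleen and lymph nodes, with CD4 enrichment on magnetic columns and a flow cytometry sort for YFP, the reporter carried by the Foxp3-cre allele. Tcf7 and Lef1 encode the related transcription factors TCF1 and LEF1. Foxp3-cre acts in cells that express Foxp3, and in Foxp3cre/wt mice the other Foxp3 allele is intact. The labels give no age and do not say whether replicates were separate animals or pools, so p-values reflect how far these libraries differ, and that spread may be technical.

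An antibody is built from heavy and light chains. In a developing B cell, 1 V segment, a D segment in the heavy chain only, and a J segment are joined by DNA recombination, and splicing links the joined exon to a constant gene. B cells carry the protein on the surface, and plasma cells, which descend from them, secrete it in large amounts. T cells rearrange T cell receptor genes instead, but transcription through the unrearranged heavy chain locus, giving RNA with mu constant exons and no functional V region, is known from mouse T cells. A table of FPKM per gene does not show whether a constant exon was spliced to a V segment.

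The sequences that carry the comparison are the constant genes, which hold almost all of the signal, and the V segments that led the 2 libraries with most light chain signal. They were read from GENCODE vM21 transcripts, on GRCm38, the build named in the submitters' processing notes. Ighm, which encodes the mu constant region of IgM, lies on the minus strand of chromosome 12 from 113418558 to 113422730, and the first 90 bases of its first constant exon are chr12:113422641-113422730. Igkc, the only kappa constant gene, lies on the plus strand of chromosome 6 from 70726435 to 70726966, and the first 90 bases of its exon are chr6:70726435-70726524.
Ighm: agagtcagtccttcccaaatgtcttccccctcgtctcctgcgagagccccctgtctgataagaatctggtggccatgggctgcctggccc
Igkc: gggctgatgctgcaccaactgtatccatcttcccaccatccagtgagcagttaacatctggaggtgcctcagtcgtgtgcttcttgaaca
The main exons of the leading kappa V segments, both on the minus strand of chromosome 6, are Igkv4-86 at chr6:68910411-68910704 and Igkv5-39 at chr6:69900424-69900721. Capitals mark TATTNCTG, which spells the end of the conserved stretch around the second conserved cysteine of a V domain.
Igkv4-86: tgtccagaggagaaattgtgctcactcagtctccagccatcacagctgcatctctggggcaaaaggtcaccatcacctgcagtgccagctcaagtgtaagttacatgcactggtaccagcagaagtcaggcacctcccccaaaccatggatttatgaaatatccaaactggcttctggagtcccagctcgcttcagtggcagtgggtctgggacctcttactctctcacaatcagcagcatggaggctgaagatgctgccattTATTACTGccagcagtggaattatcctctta
Igkv5-39: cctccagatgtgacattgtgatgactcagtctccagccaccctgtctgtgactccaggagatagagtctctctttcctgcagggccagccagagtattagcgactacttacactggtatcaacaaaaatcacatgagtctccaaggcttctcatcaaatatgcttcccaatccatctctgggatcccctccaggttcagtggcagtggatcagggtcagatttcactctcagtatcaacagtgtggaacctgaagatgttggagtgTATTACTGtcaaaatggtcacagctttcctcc
These letters were found in the last exon of 65 of the 89 V segments in the tables (73.0%), on the sense strand, and on either strand in 5.60% of 30911 transcripts of 250 to 600 bases outside the receptor genes.

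Ighm stood apart from every other segment. It had 306 and 274 FPKM in the WT libraries and 263 and 238 FPKM in the dKO libraries. These levels placed it at rank 231, 277, 284 and 323 among all genes of the library, in the same order. The 4 values lay within 1.29-fold of each other, with both dKO libraries below both WT libraries. Cd3e, a subunit of the T cell receptor complex, had 306 and 307 FPKM in WT against 382 and 363 in dKO, so that Ighm per length stood at 0.999, 0.893, 0.689 and 0.656 times Cd3e.

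Igkc was far lower, with 6.46 and 2.91 FPKM in WT against 1.03 and 4.82 in dKO. WT replicate 1 and dKO replicate 2 were the high libraries, dKO replicate 1 was the lowest, and the groups overlapped. The highest Igkc value was 6.28-fold the lowest. Per length, Igkc stood at 2.11% and 1.06% of Ighm in WT and at 0.391% and 2.02% in dKO. All 19 light chain members summed came to 4.35%, 1.83%, 0.611% and 4.94% of Ighm in WT replicate 1, WT replicate 2, dKO replicate 1 and dKO replicate 2. Ighm thus made up 95.2%, 97.7%, 99.4% and 94.6% of the summed FPKM of the members.

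**Figure D1:**
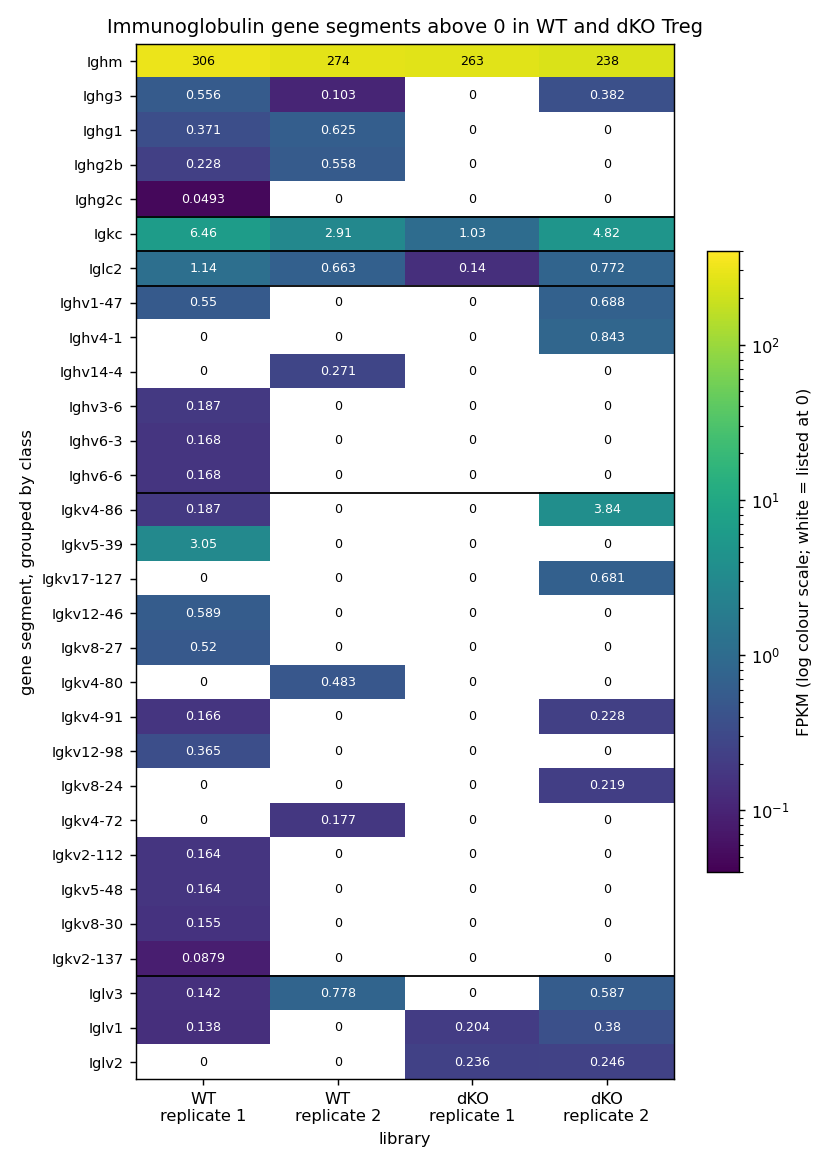
FPKM of the 30 members (rows, grouped by class) in the 4 libraries (columns), with a log colour scale and white cells for values listed at 0. Ighm is the only row between 238 and 306 FPKM, and most V segments are above 0 in a single column.

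The comparison of genotypes bears on what deleting both factors changes in Treg. Lef1 had 160 and 167 FPKM in WT against 71.6 and 62.8 in dKO (limma adjusted p = 0.016), and Tcf7 had 456 and 501 against 316 and 272 FPKM (limma adjusted p = 0.081). Without WT replicate 1 or WT replicate 2, Lef1 missed the threshold (limma adjusted p = 0.12 and 0.17) at log2 fold changes of -1.30 and -1.25, against -1.27 with all libraries. Foxp3 was at 106 to 126 FPKM in the 4 libraries. Gene-level values include exons outside the deleted part, which limits how far these levels can check the labels. Of 10710 genes that reached 1 FPKM in 2 or more libraries, 34 passed as higher and 41 as lower in dKO. At an unadjusted p under 0.05 there were 1858. The 75 calls became 21 without WT replicate 1, 14 without WT replicate 2, 42 without dKO replicate 1 and 136 without dKO replicate 2.

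Only 2 of the 30 members, Ighm and Igkc, passed the filter on low values, and neither passed the test, against 0.7% of all genes tested, 0.317% higher and 0.383% lower in dKO. Of these 2 members, 0 had an unadjusted p under 0.05, against 1858 of all 10710 genes tested. Ighm averaged 290 ± 23.0 FPKM over the WT and 251 ± 17.6 FPKM over the dKO libraries (SD, n = 2 libraries per group). Its log2 fold change on the log2(FPKM + 1) scale was -0.21 (SE 0.09, limma adjusted p = 0.32), with a 95% interval from -0.44 to 0.02. It was -0.13 without WT replicate 1 and -0.14 without dKO replicate 2, and did not pass in either case. The dKO values lay below the WT values without overlap, as for 24.2% of all genes tested. In bulk RNA, fewer cells of a type and less RNA per cell cannot be told apart.

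Igkc averaged 4.68 ± 2.51 FPKM over the WT and 2.92 ± 2.68 FPKM over the dKO libraries (SD, n = 2 libraries per group). Its log2 fold change was -0.65 (SE 0.58, limma adjusted p = 0.62), with a 95% interval from -2.17 to 0.86, which holds both lower and higher levels in dKO. Without dKO replicate 1 the log2 fold change turned to 0.11 (limma adjusted p = 0.94). The SD within each group was larger than the difference between the group means.

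The gamma constant genes, which encode the heavy chains of class-switched IgG, were near the lowest values of the tables. Ighg1 had 0.371 and 0.625 FPKM in WT and Ighg2b had 0.228 and 0.558 FPKM, and both were listed at 0 in both dKO libraries. Ighg3 had 0.556 and 0.103 FPKM in WT and was listed at 0 in dKO replicate 1 and at 0.382 FPKM in dKO replicate 2. Ighg2c, the member closest to the limit of the rule, reached 0.0493 FPKM in WT replicate 1 alone. Summed, the 4 gamma genes had 1.20 and 1.29 FPKM in WT against 0 and 0.382 in dKO. Ighg1, Ighg2b and Ighg2c became members only through WT libraries, so the gap between the sums is partly built in by the rule. The gamma sum was not among the class sums set at the start. None of the 4 gamma genes reached 1 FPKM in any library, so none was tested. Ighe, the IgE constant gene, was listed at 0 in the 4 libraries. Ighd and Igha, for IgD and IgA, lie beyond the last gene identifier of the tables and were not analysed here.

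The number of fragments behind these low values is unknown, as is the absolute depth of the libraries. Relative depth was taken from genes under 0.3 FPKM in a pair of libraries, since values from equal numbers of fragments differ only by depth. Against WT replicate 1, it was 72.0% in WT replicate 2, 67.6% in dKO replicate 1 and 71.4% in dKO replicate 2, so WT replicate 1 could show rarer segments than the other 3 libraries. After scaling to depth, Iglv1 had the same lowest value in WT replicate 1 and dKO replicate 1, at 1.00 times it each, and stood at 1.97 times it in dKO replicate 2. Iglv3 stood at 1.00, 3.95 and 2.95 times its lowest value in WT replicate 1, WT replicate 2 and dKO replicate 2.

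Among V segments, which give an antibody most of its binding site, 23 of the 89 in the tables were above 0 and 66 were listed at 0 in the 4 libraries. Of the 23, 17 were above 0 in 1 library, 4 in 2 and 2 in 3, and none in all 4. WT replicate 1 held 16 of them, WT replicate 2 held 4, dKO replicate 1 held 2 and dKO replicate 2 held 9. The 2 WT libraries shared 1 V segment, and WT replicate 1 and dKO replicate 2 shared 5. Of the 31 V values above 0, 18 were under 0.3 FPKM.

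Only 2 V segments reached 1 FPKM anywhere, each in a different library. Igkv4-86 had 3.84 FPKM in dKO replicate 2 and 0.187 FPKM in WT replicate 1, and was listed at 0 in WT replicate 2 and dKO replicate 1. Scaled to depth, its value in dKO replicate 2 was 14.6 times that in WT replicate 1. Igkv5-39 had 3.05 FPKM in WT replicate 1 and was listed at 0 in the other 3 libraries. Igkv4-86 carried 77.3% of the kappa V signal of dKO replicate 2, and Igkv5-39 carried 56.0% of that of WT replicate 1. The summed kappa V level was 5.45 and 0.659 FPKM in WT against 0 and 4.97 in dKO. The sums therefore split by library within each group, in the same order as Igkc.

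The other kappa V segments were lower. In WT replicate 1, Igkv12-46 had 0.589 FPKM and Igkv8-27 had 0.520 FPKM, each listed at 0 elsewhere. Igkv17-127 had 0.681 FPKM in dKO replicate 2 and Igkv4-80 had 0.483 FPKM in WT replicate 2, each listed at 0 elsewhere. Igkv4-91 was above 0 in 2 libraries, at 0.166 FPKM in WT replicate 1 and 0.228 FPKM in dKO replicate 2. The remaining 7 members of the class lay between 0.0879 and 0.365 FPKM in the library that held them. By family, Igkv4 gave 4 members of 19 rows in the tables and Igkv8 gave 3 of 7, while the 5 rows of Igkv1 were listed at 0.

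**Figure D2:**
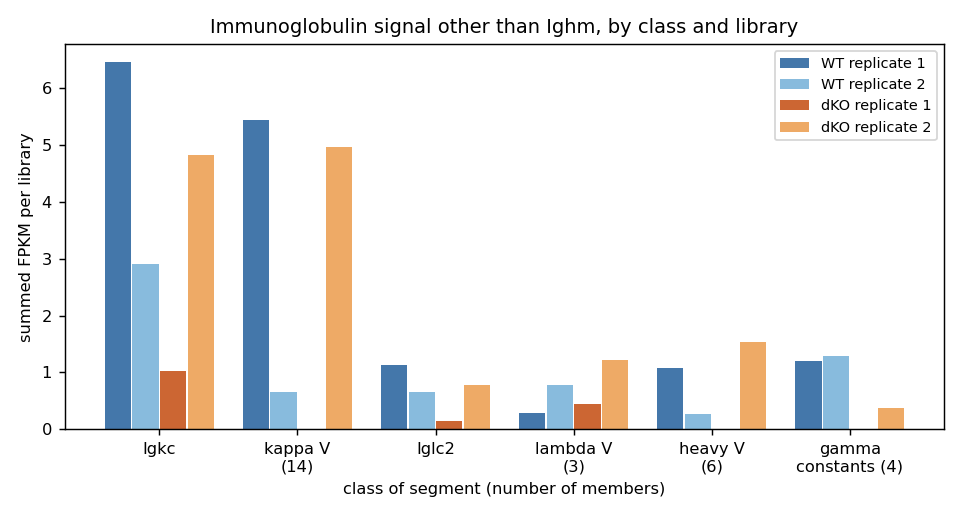
Summed FPKM of each class of segment other than Ighm (x axis, number of members in parentheses) in the 4 libraries (bars). Igkc and kappa V are highest in WT replicate 1 and dKO replicate 2. The gamma sum is 1.20 and 1.29 FPKM in WT against 0 and 0.382 in dKO, a gap partly built in by the rule for members.

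Heavy V segments gave less signal than kappa V segments in each library where either was above 0. Ighv1-47 had 0.550 FPKM in WT replicate 1 and 0.688 FPKM in dKO replicate 2. Ighv4-1 had 0.843 FPKM in dKO replicate 2 and Ighv14-4 had 0.271 FPKM in WT replicate 2, each listed at 0 in the other 3 libraries. Ighv3-6, Ighv6-3 and Ighv6-6 were at 0.168 to 0.187 FPKM in WT replicate 1 alone. The summed heavy V level was 1.07 and 0.271 FPKM in WT against 0 and 1.53 in dKO, so the libraries of a group again differed more than the groups.

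The lambda chain, the less used light chain of the mouse, had a constant gene signal that followed Igkc by library. Iglc2 had 1.14 and 0.663 FPKM in WT against 0.140 and 0.772 in dKO, and Igkc stood at 5.68, 4.39, 7.36 and 6.25 times it in the 4 libraries. Of 9 annotated lambda J and constant genes, 8 were not analysed here, among them Iglc3, to which Iglc2 was 94.5% identical. The ratio is therefore not one of all kappa to all lambda signal. The 3 lambda V segments were all members. Iglv3 had 0.142 and 0.778 FPKM in WT against 0 and 0.587 in dKO. Iglv1 had 0.138 and 0 FPKM in WT against 0.204 and 0.380 in dKO, and Iglv2 had 0 in both WT libraries and 0.236 and 0.246 FPKM in dKO. Iglv1 and Iglv2 were the only members with both dKO libraries above both WT libraries, and Ighm, Ighg1 and Ighg2b the only ones with both below, while the other 25 overlapped. Over all genes tested, 26.6% lay above and 24.2% below in this way. Of these separated members only Ighm was tested, so the shares are no like background for the others. Iglv2, Ighg1 and Ighg2b became members only through the group where they were above 0, so their separation is partly built in by the rule. The main exons of Iglv1 and Iglv2 were 97.0% identical, so fragments may have been shared between them and their split is uncertain.

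Close copies are common in these families. Across the 23 V members, the main exon was 92.6% identical at the median to its nearest annotated copy, and 6 members had a copy at 95% or more, among them Igkv17-127 at 98.0% (Igkv17-121). Igkv4-86 was 91.2% identical to Igkv4-59 and Igkv5-39 was 91.6% identical to Igkv5-45. Of 395 immunoglobulin genes that the rule names in the annotation, pseudogenes included, 288 were not in the tables. Values of single V segments may therefore hold fragments of copies not analysed here.

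The V segments above 0 were spread along both loci. The 14 kappa V members lay from 505 to 3166 kb from Igkj1, with a median of 1600 kb, and the 45 kappa V segments at 0 lay from 115 to 3001 kb, with a median of 1454 kb. The 6 heavy V members lay from 518 to 1561 kb from Ighj1 (median 910 kb), against 144 to 2379 kb (median 892 kb) for the 21 at 0. Of genes reaching 1 FPKM in 2 or more libraries, the nearest to the kappa locus was Rpia, on the Igkc side and 38.8 kb away, at 41.1 and 41.0 FPKM in WT against 38.2 and 38.7 in dKO.

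**Figure D3:**
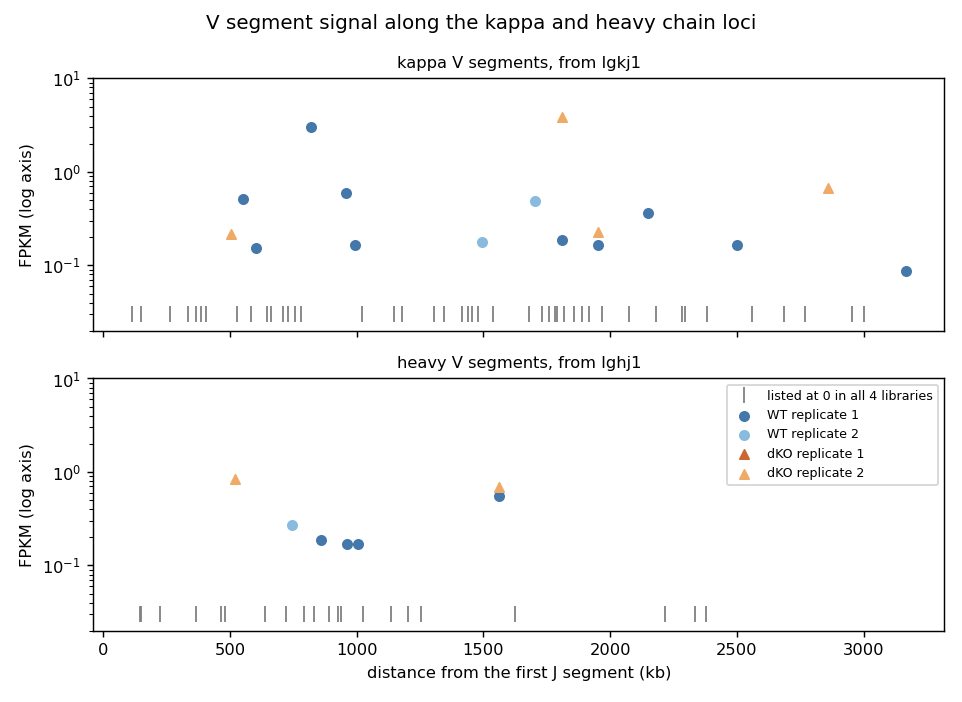
FPKM (log y axis) of each kappa V segment and each heavy V segment against its distance in kb from the first J segment, with coloured points for the libraries where it is above 0 and grey ticks for segments listed at 0 in all 4 libraries. The kappa V members span 505 to 3166 kb, and dKO replicate 1 has no point in either panel.

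All 9 J segments in the tables, which complete the V exon and lie between the V segments and the constant genes, were listed at 0, and so was the D segment Ighd1-1. The J sequences are shown because their length bears on this. Capitals mark the searched motif, which is TTCGG in kappa J and TGGGG in heavy J, followed after any 4 bases by GGNAC. It encodes the phenylalanine or tryptophan, glycine, any residue, glycine stretch that J segments share. The kappa J segments lie on the plus strand at chr6:70722562-70722599 (Igkj1), chr6:70722916-70722954 (Igkj2), chr6:70723223-70723258 (Igkj3), chr6:70723548-70723585 (Igkj4) and chr6:70723886-70723923 (Igkj5).
Igkj1: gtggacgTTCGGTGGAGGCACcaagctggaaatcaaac
Igkj2: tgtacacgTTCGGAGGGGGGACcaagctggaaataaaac
Igkj3: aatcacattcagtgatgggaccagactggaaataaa
Igkj4: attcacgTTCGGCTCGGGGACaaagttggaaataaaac
Igkj5: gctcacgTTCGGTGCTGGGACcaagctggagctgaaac
The heavy J segments lie on the minus strand at chr12:113429781-113429833 (Ighj1), chr12:113429468-113429515 (Ighj2), chr12:113429085-113429132 (Ighj3) and chr12:113428514-113428567 (Ighj4).
Ighj1: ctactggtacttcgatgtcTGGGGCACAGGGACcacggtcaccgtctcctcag
Ighj2: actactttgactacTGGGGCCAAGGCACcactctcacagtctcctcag
Ighj3: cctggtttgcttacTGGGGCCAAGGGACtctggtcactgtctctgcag
Ighj4: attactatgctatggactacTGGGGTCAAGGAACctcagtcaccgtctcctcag
The motif was found in 4 of 5 kappa and 4 of 4 heavy J segments, on the sense strand, and either motif on either strand in 0.943% of 2439 other transcripts of 38 to 100 bases. In Igkj3 the kappa letters were not present. The kappa J segments printed are 36 to 39 bases long and the heavy J segments 48 to 54 bases. Of 101 other genes in the tables whose longest transcript is at most 60 bases, 0 were above 0 FPKM, so a value of 0 for a J segment gives no measure of its use.

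Markers of the cells that make immunoglobulin were uneven. Of 25 B cell markers in the tables, 13 stayed under 1 FPKM in the 4 libraries. Ms4a1, which encodes CD20, had 0.252 and 0.0374 FPKM in WT against 0.110 and 0.342 in dKO. Pax5, the B lineage transcription factor, had 0.146 and 0.0133 against 0.0327 and 0.277 FPKM. For both of these genes WT replicate 1 and dKO replicate 2 were the high libraries, as for Igkc. This order, taken from Igkc, held for 10 of the 25 B cell markers and 6 of the 30 immunoglobulin members, Igkc included. It held for 16.5% of 6411 genes that stayed under 1 FPKM and 10.3% of the 10710 genes tested. The order was not particular to B cell markers. It held for 9 of 16 myeloid and 4 of 7 erythroid markers and for 7 of 14 transcription factors of immunoglobulin genes. The lists overlap, so these counts are not independent. Of the factors with this order, Pax5, Pou2af1 and Ebf1 are also on the B cell list and Irf4 is also on the plasma cell list. Among plasma cell markers the order held for 4 of 14, and among T cell and Treg genes for 2 of 12. Other B cell markers ran differently, with Vpreb3, a partner of the pre-B cell receptor, at 0.369 and 0.0844 FPKM in WT against 0.444 and 0.0671 in dKO. Their part in the immunoglobulin values was not tested.

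Cd79a and Cd79b encode the signalling partners of surface immunoglobulin, and their levels differed from each other. Cd79a had 0.788 and 0.470 FPKM in WT against 0.829 and 0.653 in dKO. Cd79b had 14.1 and 14.6 FPKM in WT against 22.5 and 23.3 in dKO, with no overlap between the groups, a log2 fold change of 0.64 (SE 0.08) and a limma adjusted p of 0.062. Of 14 plasma cell markers, 7 stayed under 1 FPKM in the 4 libraries and the others were higher. Among the low ones, Jchain, which links IgM and IgA into polymers, was at 0.0349 to 0.268 FPKM. Mzb1, an endoplasmic reticulum chaperone partner, was at 0.0475 to 0.243 FPKM, and Sdc1, which encodes CD138, at 0.0807 to 0.228 FPKM. Tnfrsf17, which encodes the plasma cell survival receptor BCMA, was listed at 0 in the 4 libraries. Xbp1, a transcription factor of the secretory pathway that other cells also use, was at 43.8 to 56.1 FPKM (log2 fold change -0.18, SE 0.10, limma adjusted p = 0.42). When a library was left out, the Xbp1 log2 fold change ranged from -0.07 without dKO replicate 1 to -0.29 without dKO replicate 2.

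**Figure D4:**
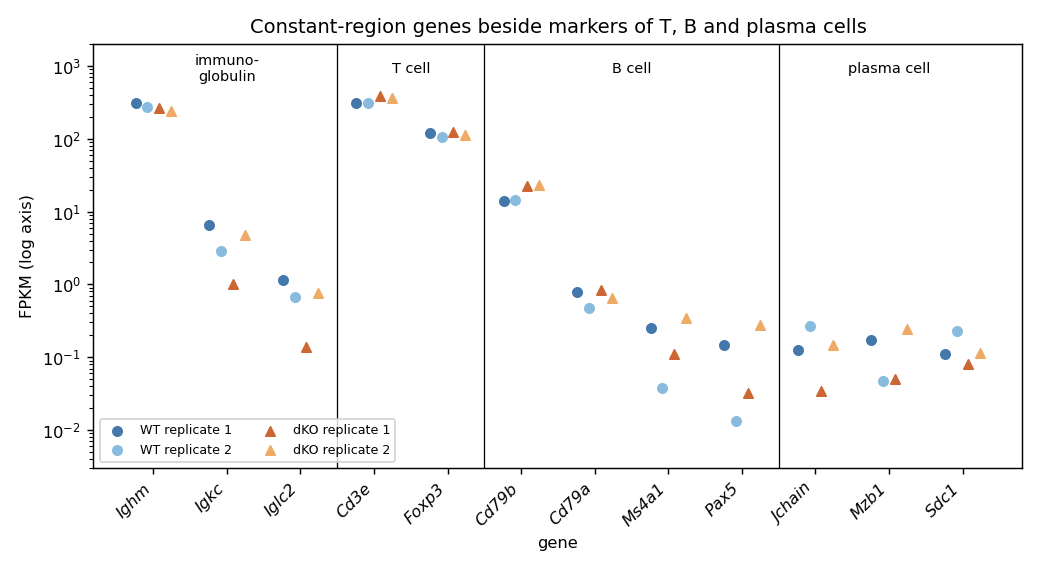
FPKM (log y axis) of constant-region genes and of T, B and plasma cell markers (x axis) in the 4 libraries (points). Ighm lies at 238 to 306 FPKM beside Cd3e, while Ms4a1, Pax5, Jchain, Mzb1 and Sdc1 stay under 0.4 FPKM in each library.

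Of 11 tested B cell markers, 0 passed the threshold over all genes (median log2 fold change -0.10, against 0.01 over all genes tested). At an unadjusted p under 0.05 there were 4, against 1858 of all 10710 genes tested. The 4 were Cd79b, Ralgps2 (17.1 and 18.2 FPKM in WT against 26.2 and 25.9 in dKO), Bank1, a B cell scaffold protein (2.28 and 1.75 against 0.192 and 0.844 FPKM), and Cd22, an inhibitory coreceptor of B cells (1.43 and 2.30 against 0.940 and 0.366 FPKM). Of 7 tested plasma cell markers, 1 fell and 0 rose, against 0.383% lower and 0.317% higher over all genes tested. Counted by an unadjusted p under 0.05 there were 2, against 1858 of all 10710 genes tested. The marker that fell was Fam46c, also called Tent5c, a poly(A) polymerase known to lengthen the tails of immunoglobulin mRNA in mouse B cells. It had 58.9 and 58.6 FPKM in WT against 30.3 and 32.5 in dKO, a log2 fold change of -0.88 (SE 0.07, limma adjusted p = 0.024). The call was lost without WT replicate 1, WT replicate 2 or dKO replicate 1 (limma adjusted p = 0.20, 0.22 and 0.063), at log2 fold changes of -0.88, -0.89 and -0.84. Txndc5, an endoplasmic reticulum disulphide isomerase, had 22.4 and 22.9 FPKM in WT against 31.4 and 32.3 in dKO (limma adjusted p = 0.087).

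**Figure D5:**
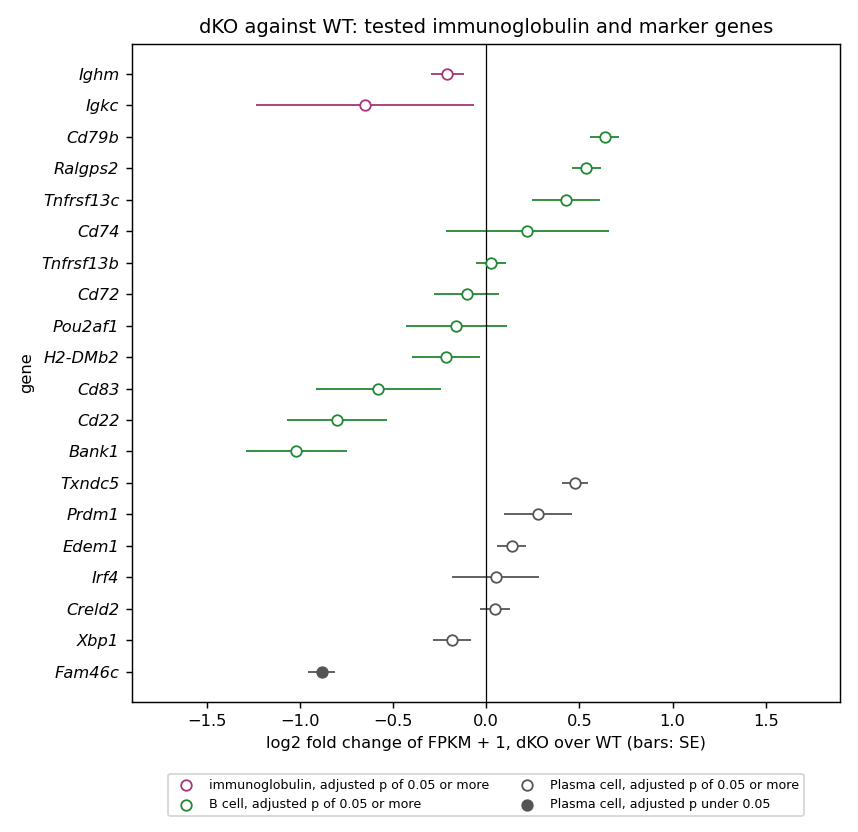
Log2 fold change of FPKM + 1, dKO over WT (x axis, bars are SE, 2 libraries per group), for the tested immunoglobulin members and the tested B and plasma cell markers (y axis), with filled points for an adjusted p under 0.05. Fam46c, at -0.88, is the only filled point, and Igkc has an SE of 0.58.

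The genes that recombine, assemble or switch immunoglobulin were low, with 7 of 8 under 1 FPKM in the 4 libraries. Rag2, Vpreb2 and Igll1 were listed at 0 throughout, and Rag1, the partner of Rag2 in V(D)J recombination, had 0.00404 FPKM in WT replicate 1 alone. Ung, a DNA repair enzyme of all cells, was the only gene of the list that was tested, with 7.26 to 10.6 FPKM and a limma adjusted p of 0.35. Of 14 transcription factors that act on immunoglobulin genes, 10 were tested and 0 passed. At an unadjusted p under 0.05 there were 0, against 1858 of all 10710 genes tested. Pou2f2, which encodes the octamer factor OCT2, had 21.8 to 25.4 FPKM, Tcf3, which encodes the E proteins E12 and E47, had 42.5 to 47.8 FPKM, and Ebf1, which acts early in the B lineage, had 0 to 0.110 FPKM. Of 11 immunoglobulin receptor genes, 2 were tested and 0 passed. These were Fcgrt and Trim21. Fcgrt, which encodes the neonatal Fc receptor heavy chain, had 0.852 and 0.821 FPKM in WT against 1.55 and 2.37 in dKO (limma adjusted p = 0.22). Of these 2 genes, Fcgrt alone had an unadjusted p under 0.05, against 1858 of all 10710 genes tested. Trim21, a cytosolic antibody receptor, was at 29.0 to 33.6 FPKM.

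The summed levels of marker lists for other cells differed between libraries. The 12 T cell and Treg genes summed to 3569 and 3701 FPKM in WT against 3491 and 3674 in dKO, and none was listed at 0. The 16 myeloid markers summed to 380 and 371 FPKM in WT against 346 and 475 in dKO. In dKO replicate 2, C1qa had 15.2 FPKM against 0.0805 to 0.766 FPKM in the other 3. Lyz2 had 31.9 FPKM there against 0.857 to 3.56 FPKM, and Csf1r had 8.51 against 0.0295 to 0.258 FPKM. Not all of the list ran this way. Ctss, its highest gene, had 275 and 280 FPKM in WT against 235 and 261 in dKO. The 25 B cell markers summed to 175 and 139 FPKM in WT against 146 and 180 in dKO, with 0 to 6 of them at 0 per library, and the 14 plasma cell markers to 230 and 232 against 205 and 224 FPKM. The 10 plasmacytoid dendritic cell markers summed to 121 and 129 against 143 and 140 FPKM, and the 7 erythroid markers to 2.50 and 1.18 against 1.59 and 5.83 FPKM. None of the tested T cell, myeloid, dendritic or erythroid genes passed (0 of 12, 5, 7 and 1). At an unadjusted p under 0.05 there were 7, 0, 1 and 0, against 1858 of all 10710 genes tested. The part of other cells in the immunoglobulin values was not tested.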

How the data were processed

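RNA of sorted Treg was sequenced with the TruSeq Stranded mRNA kit, per the labels' protocols. The deposited values are FPKM per gene, 1 table per library, made with STAR and Cuffdiff on GRCm38 per the submitters' processing notes. Tool versions, the annotation and any further scaling are, in the sources used here, not given. Each table holds 32767 genes, so 288 of 395 immunoglobulin genes in GENCODE vM21 were not analysed here. The 6 subset libraries were not used. The absolute depth is unknown.

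Tests, two-sided, were run with limma 3.58.1 (R 4.3.3) with a variance trend. The scale was log2(FPKM + 1), and 10710 genes reaching 1 FPKM in 2 or more libraries entered, with Benjamini-Hochberg adjustment over them at 0.05. The code was tested on simulated data. The pseudocount shrinks fold changes of low genes. Class sums and ratios are descriptions without a test. Copies were compared with edlib 1.3.9.post1. Where a J gene has several transcripts, the shortest with the motif was printed.

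Members and lists were chosen with earlier results of these data known. Named genes were the constant genes, members past the threshold, the 10 heavy V and 10 light V segments with the highest means, leading V segments, up to 4 J segments a class, 9 B cell and plasma cell markers, and up to 4 genes of each other list. The fifth kappa J segment, Rpia, Ralgps2, Bank1, Cd22, Fam46c, Tnfrsf17, Vpreb3, Txndc5, Pou2af1 and Irf4 were named after their values were seen. Some genes of the lists are not reported here. Alternatives were pseudocounts of 0.1 and 5 FPKM, no filter or a mean of at least 5 FPKM, median scaling, quantile normalization, no variance trend, a replicate block and leaving out each library.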

Additional observations from a re-analysis of the deposited data

How the results depend on the processing

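No member passed the threshold under any alternative run, including 30 members tested with no filter on low values and 1 with a mean of at least 5 FPKM. The count of all genes was 6 with no filter, 43 without a variance trend and 14 to 136 when a library was left out, against 75. The count of B cell and plasma cell markers was 0 with no filter and without a trend and 2 with a mean of at least 5 FPKM, against 1. Cd79b passed only with a mean of at least 5 FPKM (limma adjusted p = 0.048). Its limma adjusted p was 0.17 with no filter, 0.096 without a trend and 0.14 with the replicate block. When a library was left out, its log2 fold change ranged from 0.61 to 0.66. The cause of the changes in these counts was not tested. The labels do not say whether same-numbered WT and dKO libraries were paired. The correlation of their deviations was 0.01, which cannot show whether they were prepared together. With the replicate block the counts were 21 genes and 0 markers. When a library was left out, the log2 fold change of Foxp3, 0.08 with all libraries, ranged from -0.0051 to 0.17, and that of Igkc, -0.65 with all libraries, from -1.41 to 0.11. That of Ighm, -0.21 with all libraries, ranged from -0.29 to -0.13. The heavy constant sum, -40.3 FPKM as dKO minus WT, was -1.05 FPKM without Ighm. This remainder is the gamma genes, whose difference is partly built in by the rule. When a library was left out, the kappa V difference ranged from -3.05 to 1.91 FPKM, the heavy V difference from -0.67 to 0.86 FPKM, the kappa constant difference from -3.66 to 0.14 FPKM and the lambda V difference from -0.09 to 0.68 FPKM, so that each of these took both signs. Sums of members of at least 1 FPKM in at least 2 libraries gave no value for classes without such a member, nor did leaving out the highest member where a class has 1. The unknown depth limits every value under 1 FPKM.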

Other observations

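Gm22175, annotated as a miRNA gene inside the heavy chain locus and picked after its values were seen, was listed at 0 in both WT libraries and had 391 and 313 FPKM in the dKO libraries. FPKM is relative to transcript length, and the length of Gm22175 is not given here. The number of fragments behind its values is unknown, so they do not show how strongly it differed. Crip1, a LIM domain protein gene 101 kb outside the constant gene end of the heavy chain locus and picked in the same way, had 579 and 586 FPKM in the WT libraries and 1082 and 946 FPKM in the dKO libraries. On the V segment side of the heavy chain locus, Zfp386 lay 37.6 kb away at 15.3 to 18.6 FPKM, with overlapping groups.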
